A study of Drosophila melanogaster with 34 samples.

Results

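This experiment asked which genes of the Drosophila melanogaster embryo still depend on the transcription factor Zelda in nuclear cycle 14 (NC14), the long cycle in which the blastoderm forms cells and most zygotic genes are switched on. The libraries analysed here were chosen by their labels, as those given blue light during NC14 and no earlier, and are 8 of the 34 libraries in the series: 4 from CRY2-ZLD; His2AvRFP embryos and 4 from His2AvRFP embryos, called wild type by their titles. Each library holds the poly(A) RNA of 1 embryo, taken 30 minutes into NC14. CRY2-ZLD embryos make Zelda joined to CRY2, a photoreceptor from plants that blue light activates, and both genotypes carry a red fluorescent histone His2Av for staging. The libraries measure RNA, so what light does to the activity of the joined protein was not tested here. A call at NC14 is a difference between the genotypes under light. Embryos of both genotypes came from flies kept at 25 °C, had their chorion removed with bleach, received 488 nm light on a microscope and were imaged briefly at 587 nm. For comparison, 4 CRY2-ZLD and 4 wild-type embryos lit at NC13-14, 4 of each lit at NC10-12 and 4 CRY2-ZLD embryos without light were used, all taken at the same stage. Wild-type embryos without light were not analysed here, so unlit CRY2-ZLD embryos were set against wild type lit at NC13-14, where genotype and light differ together. The labels give neither the sex of an embryo nor whether replicates came from separate collections. The p-values thus measure the spread between single embryos within groups, estimated over all 34 libraries. These include embryos lit at NC10-14, which were not compared here.

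Zelda is a zinc finger protein that the mother supplies to the egg. It binds short motifs at promoters and enhancers, keeps the chromatin there accessible and so lets the patterning factors of the early embryo act. Genes that need it include those of cell formation, sex determination, segmentation and dorsal-ventral patterning.

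The 8 libraries held between 16063942 and 41210334 counts. Wild type replicate 3 stood apart: genes of cytosolic ribosomal proteins took 24.9% of its counts, against 11.5% to 12.5% in CRY2-ZLD embryos and at most 13.5% in the other wild-type embryos. Where a list's count of calls changed without it, the new count or the lost call is given. The transcript of zld averaged 412 ± 106 CPM (counts scaled to library size with TMM) in CRY2-ZLD and 479 ± 69.8 CPM in wild type (SD, n = 4 each), a log2 fold change of -0.22 ± 0.27 (SE; adjusted p = 0.65, edgeR) whose sign turned under scaling by ribosomal protein genes; the light acts on the protein, so this level does not check the labels. Defining markers of follicle cells and yolk protein were at or near 0, with a sum of 0.532 to 0.961 CPM in CRY2-ZLD and 0.641 to 3.94 CPM in wild type; among them Yp1, Vm26Aa and Cp36 had no count in any of the 8 embryos. Markers of differentiated tissues of later embryos summed to 152 to 274 CPM in CRY2-ZLD and 83.4 to 120 CPM in wild type, nearly all of it from elav (191 ± 56.4 CPM in CRY2-ZLD, 84.8 ± 23.7 CPM in wild type, adjusted p = 0.124), and 1 of 10 tested members was called, TwdlT, at least 19.4-fold higher and below 2 CPM in every embryo. Their part in the results was not tested.

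Genes changed in both directions. Of 9519 genes tested, 919 were lower in CRY2-ZLD embryos (9.65%) and 742 were higher (7.79%) at an adjusted p under 0.05 in edgeR's quasi-likelihood test. Without wild type replicate 3 the counts were 729 lower and 542 higher, and in a fit of the 8 libraries alone they were 410 and 296. Scaling by ribosomal protein genes turned the balance, with 462 lower and 1472 higher, or 504 and 815 without wild type replicate 3. The 4 embryos of each genotype did not overlap in 15.1% of all genes. Called decreases had a median log2 fold change of -2.003 and called increases one of 1.77. The median wild-type level was 31.6 CPM for called decreases and 4.87 CPM for called increases. Wild type is the higher group for decreases and the lower group for increases. The direction of the call thus enters these levels, and they do not show which genes are more abundant. In whole embryos, fewer cells of a type and less RNA per cell cannot be told apart.

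**Figure D1:**
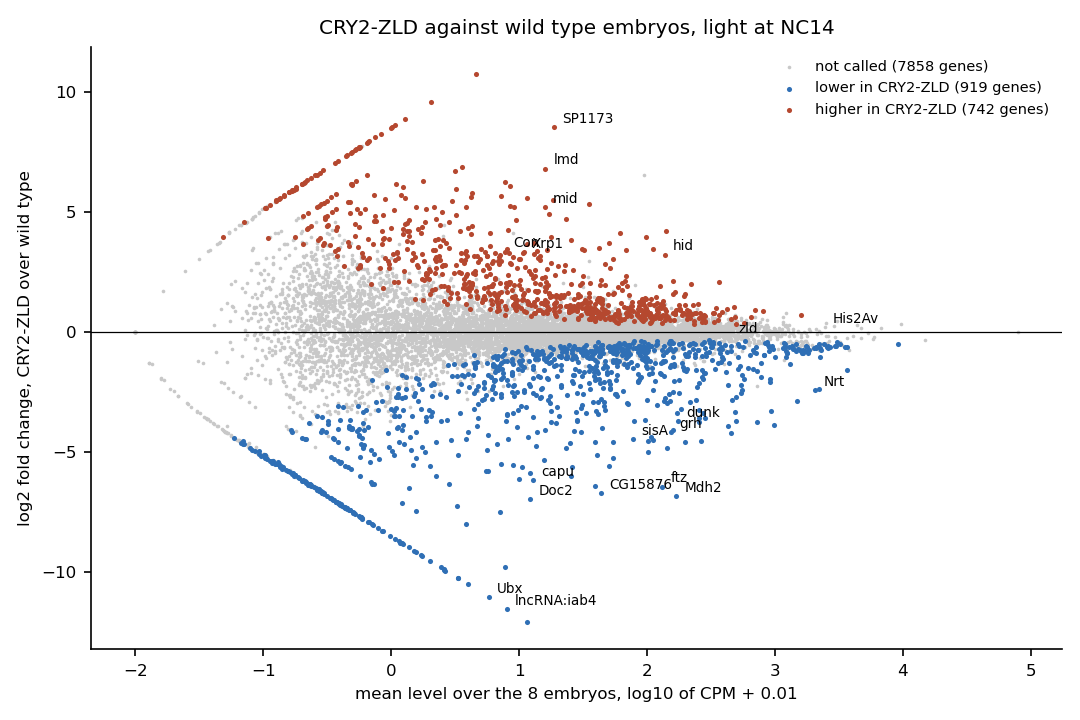
Log2 fold change of CRY2-ZLD over wild type (vertical axis) against the mean level over the 8 embryos (horizontal axis, log10 of CPM + 0.01) for the 9519 genes tested. The 919 genes called lower reach further from 0 at high levels than the 742 called higher, and the straight edges are genes without counts in 1 genotype, whose fitted fold change depends on the prior count.

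Pair-rule genes, which encode the transcription factors that divide the embryo into stripes, were lower almost as a whole. Of 10 tested, 9 fell and 1 rose, with a median of -2.92 against -0.03 over all genes (9 and 0 without wild type replicate 3). Among all genes 9.65% fell and 7.79% rose. Their summed level was 189 to 284 CPM in CRY2-ZLD embryos and 1228 to 2060 CPM in wild type. The gene ftz (FBgn0001077, chromosome arm 3R, 6864324 to 6866244 in dm6), needed for alternate segments, had 0.349, 3.32, 0.354 and 8.15 CPM in CRY2-ZLD embryos, against 208, 309.6, 260.3 and 267 CPM in wild type. Every CRY2-ZLD embryo lay far below every wild-type one, and the log2 fold change was -6.44 ± 0.78 (adjusted p = 5.37e-07), or -7.67 without CRY2-ZLD replicate 4. The repressor gene hry had 10.2, 8.63, 7.001 and 12.04 CPM in CRY2-ZLD and 208, 279, 104 and 263 CPM in wild type. The groups were again wide apart, at -4.49 ± 0.56 (adjusted p = 8.63e-07). The forkhead genes slp1 and slp2 fell by 1.96 ± 0.54 and 3.26 ± 0.62 on the log2 scale. The paired-domain gene prd fell by 3.68 ± 0.56 on the log2 scale, the zinc finger gene opa by 3.75 ± 0.65 and the homeobox gene eve by 2.58 ± 0.40. The decreases of the Runt factor gene run and of the repressor gene odd were smaller, at -1.72 ± 0.40 and -1.71 ± 0.56. The exception was ftz-f1, which encodes the nuclear receptor partner of Ftz and averaged 44.8 ± 21.3 CPM in CRY2-ZLD and 15.7 ± 9.67 CPM in wild type, with overlapping embryos (1.51 ± 0.53, adjusted p = 0.0444). It shares 29.4% of its exon bases with another gene. The call for odd was lost in 7 of the 8 fits that left out 1 embryo, all but that without wild type replicate 3 (highest adjusted p = 0.0764, without CRY2-ZLD replicate 2). That for ftz-f1 was lost in 6 of the 8 fits that left out 1 embryo, all but that without CRY2-ZLD replicate 1 and that without wild type replicate 1 (highest adjusted p = 0.14, without CRY2-ZLD replicate 2).

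Gap genes act a step earlier and lay down broad domains. Of 14 tested, 3 were lower and 0 were higher, against 9.65% and 7.79% of all genes. The repressor gene gt had 10.2, 19.96, 6.60 and 27.1 CPM in CRY2-ZLD embryos, against 160.0, 138, 88.2 and 121 CPM in wild type. No embryos overlapped, and the change was -2.99 ± 0.39 (adjusted p = 1.45e-06). The gene slp1, which is also on the pair-rule list, averaged 16.4 ± 9.83 CPM in CRY2-ZLD and 64.01 ± 17.7 CPM in wild type. The gene tll, which patterns the embryo's ends, averaged 20.02 ± 7.93 CPM in CRY2-ZLD and 81.2 ± 59.4 CPM in wild type, with overlap. Its call was lost at an adjusted p of 0.0749 without CRY2-ZLD replicate 3 and of 0.0823 without wild type replicate 1. The trunk gap genes Kr and hb were not called, at -0.76 ± 0.33 (adjusted p = 0.121) and -0.27 ± 0.51 (adjusted p = 0.766), and hb changed sign under ribosomal protein scaling. Whether gap and pair-rule genes differ in their share of calls was not tested.

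Segment polarity genes, which fix the boundaries of segments after the pair-rule genes, had no decrease among 9 tested and 3 increases (2 without wild type replicate 3). The shares over all genes were 9.65% lower and 7.79% higher, or 5.71% higher without that embryo. The T-box gene mid had 19.8, 13.6, 72.3 and 17.6 CPM in CRY2-ZLD embryos and 0.163, 1.48, 0 and 1.61 CPM in wild type. All CRY2-ZLD embryos were above all wild-type ones and replicate 3 was the highest of them; the change was 5.20 ± 0.90 (adjusted p = 9.23e-05), or 4.34 without CRY2-ZLD replicate 3. The paired-domain gene gsb averaged 5.16 ± 3.60 CPM in CRY2-ZLD and 0.437 ± 0.388 CPM in wild type, with overlap (a log2 fold change of 3.48, or 4.11 without wild type replicate 1). The Wnt ligand gene wg averaged 47.01 ± 21.5 CPM in CRY2-ZLD and 18.5 ± 9.56 CPM in wild type. The wg call was lost at an adjusted p of 0.13 without CRY2-ZLD replicate 3, of 0.0745 without wild type replicate 1 and of 0.0743 without wild type replicate 3.

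Hox genes give segments their identity. Of 8 tested, 4 were lower and 1 was higher, against 9.65% and 7.79% of all genes. Their median was -2.85, or -2.33 with genes at 0 counts set to the bound of their fold. The trunk Hox gene Ubx (FBgn0003944, chromosome arm 3R, 16656623 to 16734426) had no counts in any CRY2-ZLD embryo, against 9.69, 11.1, 11.3 and 14.01 CPM in wild type. With a floor of 3 counts over the CRY2-ZLD group it was at least 308-fold lower. In the same gene complex, the noncoding transcript lncRNA:iab4 (FBgn0020546, chromosome arm 3R, 16850004 to 16856497) had no counts in any CRY2-ZLD embryo and 9.75, 17.5, 15.6 and 21.02 CPM in wild type, at least 423-fold lower. It shares 19.8% of its exon bases with lncRNA:iab8 on the opposite strand, and whether counting used strand is not given in the sources used here. Their neighbour lncRNA:bxd, chosen after its values were seen, averaged 3.13 ± 1.72 CPM in CRY2-ZLD and 75.6 ± 17.7 CPM in wild type (-4.60 ± 0.66, adjusted p = 6.71e-06). The abdominal gene abd-A averaged 0.736 ± 0.122 CPM in CRY2-ZLD and 8.77 ± 4.18 CPM in wild type. In the head, Dfd had 0.392, 0.0572, 0.665 and 0.354 CPM in CRY2-ZLD embryos, against 9.72, 25.6, 13.5 and 21.2 CPM in wild type. The groups did not overlap (-5.53 ± 0.54, adjusted p = 9.91e-09). The most anterior Hox gene, lab, was the increase, with 1.79, 1.77, 7.001 and 2.33 CPM in CRY2-ZLD and 0.327, 0.301, 0 and 0 CPM in wild type. These groups did not overlap either (4.14 ± 0.81, adjusted p = 0.000457, or 3.42 without CRY2-ZLD replicate 3). The gene pb, the fourth decrease, was below 1 CPM in every embryo, and Antp, Scr and Abd-B were not called, at -0.02, -1.31 and -2.14.

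On the dorsal side, BMP ligands are shaped into a gradient by secreted proteins and switch on genes of the dorsal ectoderm. Of 18 tested genes of this system 10 were lower and 0 were higher, against 9.65% and 7.79% of all genes. The ligand gene dpp averaged 25.7 ± 8.69 CPM in CRY2-ZLD and 71.5 ± 17.6 CPM in wild type (-1.48 ± 0.36, adjusted p = 0.00464). The protease gene tld, whose product frees the ligand, had 9.29, 4.17, 10.6 and 14.9 CPM in CRY2-ZLD embryos, against 376, 171, 309 and 249 CPM in wild type. The groups were far apart (-4.82 ± 0.49, adjusted p = 1.64e-08). The BMP-binding protein gene tsg fell by 2.91 ± 0.35 on the log2 scale. Among targets of the signal, the T-box gene Doc2 had 0.174, 0.572, 0 and 0.0506 CPM in CRY2-ZLD embryos and 9.56, 43.7, 16.3 and 27.1 CPM in wild type. No CRY2-ZLD embryo reached the lowest wild-type one (-6.97 ± 0.90, adjusted p = 1.43e-06, or -8.21 without CRY2-ZLD replicate 2). The homeobox gene zen averaged 17.1 ± 13.8 CPM in CRY2-ZLD and 85.6 ± 60.2 CPM in wild type, with overlap (-2.33, or -3.01 without CRY2-ZLD replicate 4). The related genes zen2, Doc1 and Doc3 and the peptidase gene Ance were the other decreases, between -2.70 and -1.88. The Doc1 call was lost at an adjusted p of 0.0517 without CRY2-ZLD replicate 2 and of 0.0513 without CRY2-ZLD replicate 3. The second ligand gene, scw, was lower by 1.43 ± 0.49 on the log2 scale with overlap and was lower by 2.48 ± 0.51 in unlit CRY2-ZLD embryos.

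In the neurogenic ectoderm, which forms the ventral nerve cord, 4 of 15 tested genes were lower and 3 were higher (2 without wild type replicate 3). For all genes the shares were 9.65% lower and 7.79% higher, or 5.71% higher without that embryo. The BMP inhibitor gene sog (FBgn0003463, chromosome arm X, 15603283 to 15633434) had 34.3, 69.8, 58.9 and 30.9 CPM in CRY2-ZLD embryos, against 489.6, 506, 199 and 813 CPM in wild type. No overlap was seen (-3.37 ± 0.40, adjusted p = 3.16e-07). The neural factor gene SoxN fell by 2.94 ± 0.47 and the FGF ligand gene ths by 3.06 ± 0.60 on the log2 scale. Among the increases, the ETS factor gene pnt had 48.9, 48.9, 77.9 and 35.01 CPM in CRY2-ZLD embryos and 5.47, 16.7, 6.80 and 12.5 CPM in wild type. The genotypes did not overlap (2.34 ± 0.34, adjusted p = 9.26e-06), and pnt was also higher in unlit CRY2-ZLD embryos, by 1.94 ± 0.34. The homeobox gene Dr, which marks lateral neural precursors, rose by 3.13 ± 0.73.

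Of 15 tested genes of the mesoderm and gastrulation, 2 were lower and 1 was higher (0 without wild type replicate 3), with a median of -0.17. Over all genes 9.65% were lower and 7.79% higher, with a median of -0.03. The mesoderm selector gene twi had 157, 145, 127 and 113 CPM in CRY2-ZLD embryos and 314, 303, 336 and 358 CPM in wild type. The embryos did not overlap, but the change of -1.28 ± 0.49 missed the threshold (adjusted p = 0.0678). In a fit of the 8 libraries alone its adjusted p was 0.000618. The repressor gene sna was at -0.78 ± 0.65 (adjusted p = 0.451). The guidance gene NetA was lower by 1.998 ± 0.59 and the Wnt gene wntD by 3.07 ± 0.93, and the muscle factor gene Mef2 was higher by 2.09 ± 0.73. The NetA call was lost at an adjusted p of 0.0513 without CRY2-ZLD replicate 4 and of 0.0684 without wild type replicate 4. That of wntD was lost at an adjusted p of 0.055 without CRY2-ZLD replicate 2 and of 0.0501 without wild type replicate 2. That of Mef2 was lost in 5 of the 8 fits that left out 1 embryo, all but that without CRY2-ZLD replicate 4, that without wild type replicate 2 and that without wild type replicate 4 (highest adjusted p = 0.0907, without CRY2-ZLD replicate 3). Among 7 terminal and gut genes 3 were lower: tll, the endoderm and blood factor gene srp (30.3 ± 10.8 CPM in CRY2-ZLD, 311 ± 245 CPM in wild type; -3.36, or -2.71 without wild type replicate 4) and the hindgut gene byn (9.79 ± 3.71 CPM in CRY2-ZLD, 72.99 ± 29.1 CPM in wild type).

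**Figure D2:**
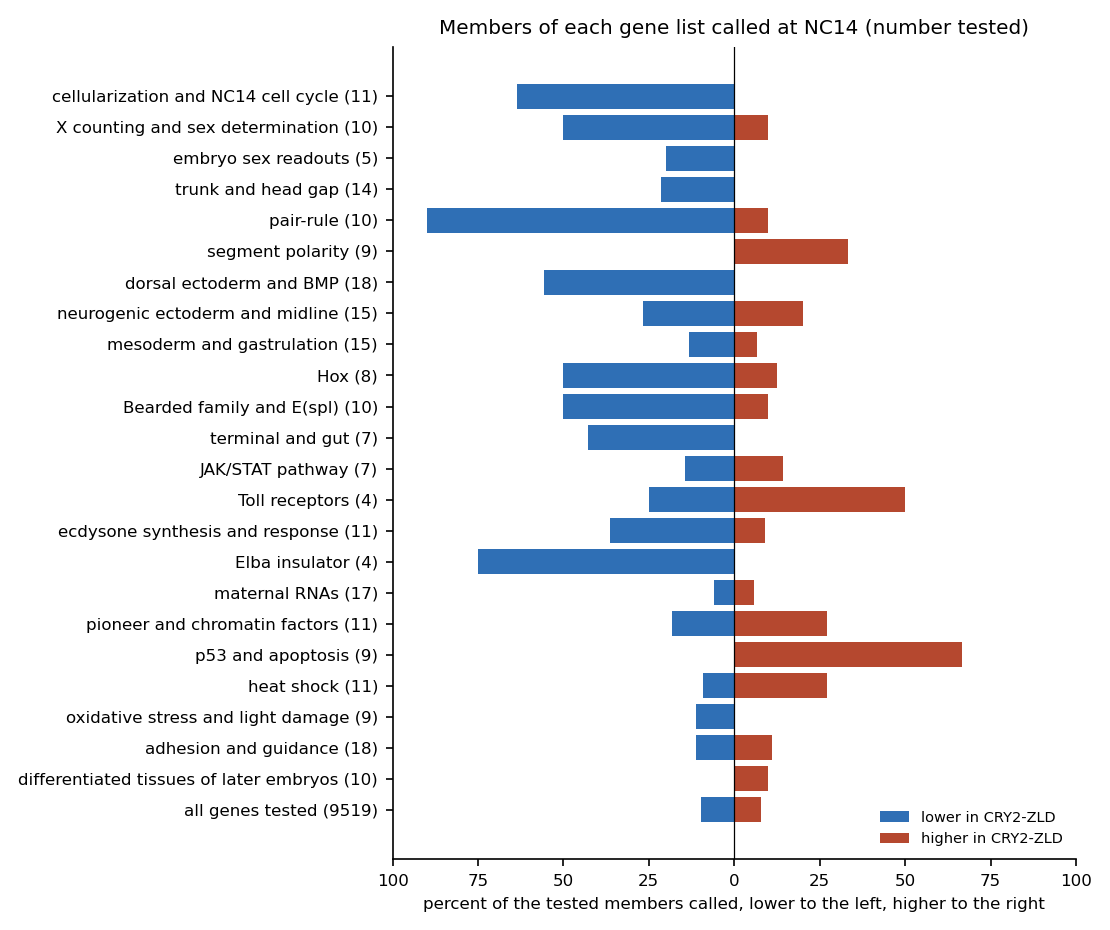
Percent of the tested members of each gene list called lower (bars to the left) or higher (bars to the right) in CRY2-ZLD than in wild type at NC14, with the number tested in brackets. The pair-rule bar reaches furthest left with 9 of 10 members, the bar of p53 and apoptosis genes furthest right with 6 of 9, and over all genes tested 9.65% were lower and 7.79% higher.

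Genes that build the cells of the blastoderm were lower: 7 of 11 tested genes of cellularization and the NC14 cell cycle fell and 0 rose. Among all genes 9.65% fell and 7.79% rose. The list had a median of -1.54, and without wild type replicate 3, 6 of its genes fell. The adhesion protein gene Nrt (FBgn0004108, chromosome arm 3L, 16766072 to 16777465) had 673, 658, 676 and 604 CPM in CRY2-ZLD embryos, against 4088, 3949, 2420 and 3429 CPM in wild type. Values did not overlap between genotypes (-2.41 ± 0.21, adjusted p = 1.92e-09); 21.8% of its exon bases are shared with a gene on the opposite strand. The actin regulator gene btsz averaged 174 ± 62.2 CPM in CRY2-ZLD and 1681 ± 228 CPM in wild type. The gene dunk, which helps keep myosin at the furrow, averaged 24.8 ± 11.1 CPM in CRY2-ZLD and 322 ± 206 CPM in wild type. The furrow regulator gene bnk had 5.36, 6.46, 16.6 and 5.06 CPM in CRY2-ZLD embryos and 513, 46.4, 131 and 88.96 CPM in wild type. Wild-type embryos differed widely, with replicate 1 highest, and still lay above all CRY2-ZLD embryos (-4.54 ± 0.68, adjusted p = 1.25e-05, or -3.40 without wild type replicate 1). The membrane growth gene slam fell by 2.37 ± 0.37, the cell cycle brake Z600 by 1.30 ± 0.38 and the lipid droplet transport gene halo by 1.54 ± 0.42 on the log2 scale. The groups of halo overlapped, and its call was lost at an adjusted p of 0.0597 without wild type replicate 1.

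Bearded proteins restrain Notch signalling. Of 10 tested genes of the Bearded family and the E(spl) complex 5 were lower and 1 was higher, against 9.65% and 7.79% of all genes. The counts were 5 lower and 0 higher without wild type replicate 3. Tom had 26.9, 42.2, 51.2 and 36.4 CPM in CRY2-ZLD embryos, against 326, 469, 564 and 520.3 CPM in wild type. There was no overlap (-3.58 ± 0.33, adjusted p = 4.78e-09). Its relatives Ocho and Brd fell by 3.72 ± 0.39 and 3.66 ± 0.47 on the log2 scale, BobA by 3.12 ± 0.63 and E(spl)m4-BFM by 2.06 ± 0.29, and none of them overlapped between the genotypes. Wild type replicate 3 had the highest BobA level, and the change was -3.74 without CRY2-ZLD replicate 4 and -2.25 without wild type replicate 3. The increase was E(spl)mdelta-HLH, below 1 CPM in every embryo.

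Sex is set in the fly by a count of X chromosomes through early transcription factors and a cytokine. Of 10 tested genes of this system 5 were lower and 1 was higher, against 9.65% and 7.79% of all genes. The X-linked factor gene sisA (FBgn0003411, chromosome arm X, 11321579 to 11322357) had 4.32, 4.17, 4.48 and 13.96 CPM in CRY2-ZLD embryos and 133, 73.1, 109 and 281 CPM in wild type. Embryos of the genotypes did not overlap (-4.47 ± 0.61, adjusted p = 3.07e-06, or -5.10 without CRY2-ZLD replicate 4). The cytokine gene upd1 averaged 3.31 ± 1.86 CPM in CRY2-ZLD and 58.2 ± 42.5 CPM in wild type (-4.15 ± 0.64, or -3.51 without wild type replicate 1). The pair-rule gene run and the repressor genes dpn and emc were lower too, at -1.15 ± 0.36 and -0.83 ± 0.27 for the last 2. Since dpn shares 59.3% of its exon bases with asRNA:CR44275 on the opposite strand, and the use of strand is unknown, reads of this pair cannot be told apart. Their target Sxl, the switch gene that is on in females, had 187, 420.4, 208 and 183 CPM in CRY2-ZLD embryos, against 1937, 171, 739.8 and 1906 CPM in wild type. Wild type replicate 2 lay below every CRY2-ZLD embryo, so the groups overlapped; the change of -2.25 ± 0.92 missed the threshold (adjusted p = 0.0898), and without wild type replicate 2 the adjusted p was 0.0497. Of 5 tested genes that read out sex 1 was lower. This dosage compensation transcript, lncRNA:roX1, averaged 130.2 ± 41.8 CPM in CRY2-ZLD and 856 ± 226 CPM in wild type (-2.72 ± 0.44, adjusted p = 3.54e-05). The increase was her, a zinc finger gene that acts on Sxl, at 1.64 ± 0.22 with light and 1.71 ± 0.22 without.

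The steroid hormone ecdysone is made by a chain of enzymes. Of 11 tested genes of its synthesis and response 4 were lower and 1 was higher, against 9.65% and 7.79% of all genes. The counts were 3 and 1 without wild type replicate 3. The enzyme genes sad and shd were not called, at -0.40 ± 0.33 (adjusted p = 0.453) and -1.20 ± 0.98 (adjusted p = 0.443). The hydroxylase gene phtm averaged 2.04 ± 1.03 CPM in CRY2-ZLD and 98.2 ± 21.8 CPM in wild type (-5.58 ± 0.65, adjusted p = 2.77e-07). The hydroxylase gene dib averaged 2.74 ± 2.37 CPM in CRY2-ZLD and 105 ± 14.01 CPM in wild type (-5.24 ± 0.69, adjusted p = 1.77e-06, or -5.97 without CRY2-ZLD replicate 1); 20.3% of its exon bases are shared with wit on the opposite strand. The cytochrome gene spo fell by 2.91 ± 0.42, with 12.4% of its exon bases shared with a gene on the opposite strand, and the dehydrogenase gene sro by 2.21 ± 0.79 on the log2 scale. The hormone's receptor gene EcR was the increase, with 104, 168, 178 and 119 CPM in CRY2-ZLD embryos and 86.4, 40.1, 43.5 and 47.2 CPM in wild type. All CRY2-ZLD embryos were above all wild-type ones (1.39 ± 0.26, adjusted p = 0.000331).

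Of 18 tested genes of adhesion and guidance 2 were lower and 2 were higher, against 9.65% and 7.79% of all genes; the counts were 5 and 1 without wild type replicate 3. The midline repellent gene sli had 78.05, 51.4, 58.5 and 92.7 CPM in CRY2-ZLD embryos, against 880.4, 1223, 474 and 1141 CPM in wild type. The groups did not overlap (-3.73 ± 0.35, adjusted p = 4.76e-09). The adhesion gene Con had 13.8, 7.66, 28.6 and 6.48 CPM in CRY2-ZLD and 1.61, 1.25, 2.05 and 0.623 CPM in wild type. Here all CRY2-ZLD embryos were higher (3.35 ± 0.58, adjusted p = 9.23e-05, or 2.75 without CRY2-ZLD replicate 3). The teneurin gene Ten-a rose by 1.95 ± 0.67, a call lost in 7 of the 8 fits that left out 1 embryo, all but that without CRY2-ZLD replicate 3 (highest adjusted p = 0.102, without wild type replicate 4). Among 4 Toll receptor genes 1 was lower and 2 were higher (1 higher without wild type replicate 3). Tollo fell by 2.08 ± 0.65, Toll-6 rose by 1.53 ± 0.44 and Toll-7 by 2.39 ± 0.82 on the log2 scale (3.47 without wild type replicate 4). The Tollo call was lost in 5 of the 8 fits that left out 1 embryo, all but that without CRY2-ZLD replicate 4, that without wild type replicate 1 and that without wild type replicate 3 (highest adjusted p = 0.0627, without CRY2-ZLD replicate 2), and that of Toll-7 in 6 of the 8 fits that left out 1 embryo, all but that without CRY2-ZLD replicate 4 and that without wild type replicate 4 (highest adjusted p = 0.103, without wild type replicate 2). Of 7 JAK/STAT pathway genes upd1 was lower, and the transcription factor gene Stat92E was higher (562 ± 84.5 CPM in CRY2-ZLD, 289 ± 133 CPM in wild type, with overlap).

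Among 11 tested pioneer and chromatin factors 2 were lower and 3 were higher (2 and 1 without wild type replicate 3), against 9.65% and 7.79% of all genes. The epithelial pioneer factor gene grh had 13.7, 11.8, 17.8 and 20.7 CPM in CRY2-ZLD embryos and 211, 398, 209 and 343 CPM in wild type. The groups were far apart (-4.18 ± 0.40, adjusted p = 6.91e-09), and opa was the other decrease. The GA-binding factor genes Clamp and Trl were higher by 0.80 ± 0.23 and 1.15 ± 0.37, and the homeobox gene caup by 3.67 ± 1.06 (4.90 without wild type replicate 2). Not every alternative setting tested caup: 16 did, against 19 for Clamp and for Trl. The Clamp call was lost at an adjusted p of 0.0788 without CRY2-ZLD replicate 2 and of 0.0739 without wild type replicate 3, and the Trl call in 5 of the 8 fits that left out 1 embryo, all but that without CRY2-ZLD replicate 2, that without wild type replicate 1 and that without wild type replicate 2 (highest adjusted p = 0.0995, without wild type replicate 3); Trl shares 71.0% of its exon bases with CG42507 and Clamp 17.3% with CG42748. Of 4 Elba insulator genes, 3 were lower, or 2 without wild type replicate 3. In unlit CRY2-ZLD embryos 2 of the 4 were lower too, against 4.45% of all genes, with a median of -0.82. The difference between the NC14 effect and the unlit difference was called negative for 1 of the 4. Elba2 averaged 112 ± 59.7 CPM in CRY2-ZLD and 805 ± 478 CPM in wild type, and insv 196 ± 30.5 CPM in CRY2-ZLD and 628 ± 57.03 CPM in wild type. The third call, Elba1 at -0.87 ± 0.31, was lost in 6 of the 8 fits that left out 1 embryo, all but that without wild type replicate 2 and that without wild type replicate 4 (highest adjusted p = 0.203, without wild type replicate 3). Of 17 maternal RNAs tested, 1 was lower and 1 was higher, against 9.65% and 7.79% of all genes. The decrease was plu, a cell cycle regulator of the egg, lower by 2.73 ± 0.36 with light and by 2.84 ± 0.36 without. The increase was the germ line helicase gene vas, which shares 24.6% of its exon bases with solo. The vas call was lost at an adjusted p of 0.099 without CRY2-ZLD replicate 2, of 0.0565 without wild type replicate 3 and of 0.0529 without wild type replicate 4.

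Most listed cell death genes were higher, though their summed level was not set apart. It was 366 to 726 CPM in CRY2-ZLD embryos and 402 to 617 CPM in wild type, with overlap. Of 9 tested genes of the p53 and apoptosis list 6 rose and 0 fell, with a median of 2.38 (5 rose without wild type replicate 3). Among all genes 7.79% rose and 9.65% fell. The death inducer gene hid (FBgn0003997, chromosome arm 3L, 18167745 to 18185641) had 216, 157, 374 and 248 CPM in CRY2-ZLD embryos, against 42.2, 30.9, 16.4 and 16.8 CPM in wild type. No overlap was seen (3.22 ± 0.47, adjusted p = 9.72e-06). Its relatives in the same gene cluster were higher as well: rpr averaged 32.3 ± 13.4 CPM in CRY2-ZLD and 6.18 ± 2.73 CPM in wild type, and skl 19.4 ± 11.2 CPM in CRY2-ZLD and 2.93 ± 1.47 CPM in wild type. The stress factor gene Xrp1 had 13.8, 11.8, 19.5 and 34.2 CPM in CRY2-ZLD embryos and 1.72, 4.12, 1.22 and 0.623 CPM in wild type. It too did not overlap (3.32 ± 0.49, adjusted p = 9.5e-06, or 4.03 without wild type replicate 2), and it was higher without light, by 1.67 ± 0.47. The other increases were grim (0.847 ± 0.660 CPM in CRY2-ZLD, 0.0494 ± 0.0587 CPM in wild type; 3.76, or 4.41 without wild type replicate 2) and Irbp18, the partner of Xrp1, whose call was lost at an adjusted p of 0.12 without CRY2-ZLD replicate 1, of 0.0542 without wild type replicate 2 and of 0.0659 without wild type replicate 3. Of the exon bases of grim, 44.1% are shared with asRNA:CR45974 on the opposite strand and 31.8% with lncRNA:CR45975 on the same strand, so the level of grim is uncertain. The gene p53 itself was at 0.72 ± 0.29 (adjusted p = 0.0799), with 38.01% of its exon bases shared with asRNA:CR46089 on the opposite strand.

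Of 11 tested heat shock genes 1 was lower and 3 were higher (2 without wild type replicate 3), against 9.65% and 7.79% of all genes. Hsp26 was lower by 1.10 ± 0.26 on the log2 scale. Its call was lost under ribosomal protein scaling, at an adjusted p of 0.114, or 0.0745 with wild type replicate 3 left out as well. Hsp70Bb averaged 11.7 ± 9.41 CPM in CRY2-ZLD and 1.19 ± 0.530 CPM in wild type, a change of 3.29, or 2.56 without CRY2-ZLD replicate 3, and a call lost at an adjusted p of 0.0503 without CRY2-ZLD replicate 3. Hsp68 averaged 28.5 ± 12.3 CPM in CRY2-ZLD and 10.5 ± 2.51 CPM in wild type, a call lost at an adjusted p of 0.131 without CRY2-ZLD replicate 2, of 0.0625 without wild type replicate 2 and of 0.103 without wild type replicate 3. The inducible gene Hsp70Aa was at least 11.6-fold higher, from 25 counts over the 4 CRY2-ZLD embryos and none in wild type. Of 9 genes of oxidative stress and light damage, the superoxide dismutase gene Sod2 was the 1 called, lower, against 9.65% of all genes. The Sod2 call was lost at an adjusted p of 0.056 without CRY2-ZLD replicate 3 and of 0.12 without wild type replicate 3.

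Outside the lists, 4 further genes were chosen after their values were seen, and all 4 were higher. The head selector gene toy, on chromosome 4, had 20.1, 13.8, 42.01 and 20.7 CPM in CRY2-ZLD embryos, against 2.56, 2.41, 1.28 and 0.934 CPM in wild type. The genotypes did not overlap (3.72 ± 0.51, adjusted p = 3.13e-06). The nuclear factor gene dac rose by 3.96 ± 0.51, the cell cycle inhibitor gene dap by 2.57 ± 0.42 and the Polycomb group gene Psc by 2.14 ± 0.30, each without overlap.

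The 12 largest decreases fell into genes that were also low without light and genes that were not. Nepl4 (FBgn0031805, chromosome arm 2L, 6367882 to 6370190), which resembles the metalloprotease neprilysin, had no counts in CRY2-ZLD embryos and 22.95, 17.4, 29.4 and 23.3 CPM in wild type, at least 601-fold lower. It was also lower in unlit CRY2-ZLD embryos, which held 5.68, 4.74, 4.88 and 3.36 CPM. The malate dehydrogenase gene Mdh2 had 3.97, 1.32, 3.15 and 3.14 CPM in CRY2-ZLD lit at NC14, against 339, 312, 366 and 323 CPM in wild type. Unlit CRY2-ZLD embryos were as low, at 3.28, 3.13, 2.85 and 1.81 CPM, and the change was -6.84 ± 0.29 with light and -7.13 ± 0.29 without. The glutathione transferase gene GstE10 had 1 count over the 4 CRY2-ZLD embryos and 15.5 ± 10.5 CPM in wild type, a ratio of 1132 (95% counting interval 203 to 44737). GstE10, CG12560 and the actin nucleator gene capu were likewise lower without light, at -9.78 ± 0.92, -7.14 ± 0.77 and -4.95 ± 0.80. Leaving out 1 embryo moved GstE10 to -11.50 without CRY2-ZLD replicate 2, CG12560 to -8.49 without CRY2-ZLD replicate 1 and capu to -7.36 without CRY2-ZLD replicate 1. The others were Ubx, lncRNA:iab4, Doc2, ftz, CG15876, CG13653 and CG13465, none of them called without light; CG13653 was at -6.12, or -7.25 without CRY2-ZLD replicate 4. CG15876 (FBgn0035569, chromosome arm 3L, 4694205 to 4694845) had 0.872, 0.343, 0.133 and 1.97 CPM in CRY2-ZLD lit at NC14, 117, 118, 45.8 and 62.2 CPM in unlit CRY2-ZLD and 176, 38.8, 91.1 and 39.9 CPM in wild type. Its unlit embryos thus lay within or near the wild-type range and the lit ones far below (-6.70 ± 0.61, or -7.55 without CRY2-ZLD replicate 4 and -6.08 without wild type replicate 1).

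Of the 12 largest increases, 8 were also called higher without light. CG31517, which shares 23.8% of its exon bases with CG9926 on the opposite strand, had 32.8, 37.5, 27.2 and 46.3 CPM in CRY2-ZLD lit at NC14, 39.003, 43.7, 40.1 and 38.9 CPM in unlit CRY2-ZLD and 0.653, 0.949, 0 and 1.45 CPM in wild type. Lit and unlit CRY2-ZLD embryos lay in one range and every wild-type embryo was far below it. The same held by call for Reepl1, CG17816, the adhesion gene Dscam2, GILT3, CG5568 and CG7191, among others. Leaving out 1 embryo moved Reepl1 (6.25) to 7.23 without wild type replicate 1, CG5568 (4.94) to 4.34 without CRY2-ZLD replicate 4 and Dscam2 (5.59) to 4.84 without CRY2-ZLD replicate 3 and 6.32 without wild type replicate 3. The largest increase was SP1173 (FBgn0035710, chromosome arm 3L, 6689327 to 6703521), with 55.5, 7.26, 70.9 and 15.99 CPM in CRY2-ZLD and 0.163, 0.139, 0 and 0 CPM in wild type. The myoblast factor gene lmd (FBgn0039039, chromosome arm 3R, 23021222 to 23026713) had 54.4, 24.4, 31.7 and 16.6 CPM in CRY2-ZLD embryos and 0.735, 0.232, 0 and 0 CPM in wild type. The change was 6.81 ± 0.93 (adjusted p = 3.1e-06), or 8.13 without wild type replicate 1, and unlit CRY2-ZLD embryos held 0.537 to 1.11 CPM. The remaining ones were mid and CG13375 (5.25, or 7.32 without wild type replicate 1). For SP1173 and mid, neither the unlit difference nor its difference from the NC14 effect was called, so their dependence on light is undecided.

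**Figure D3:**
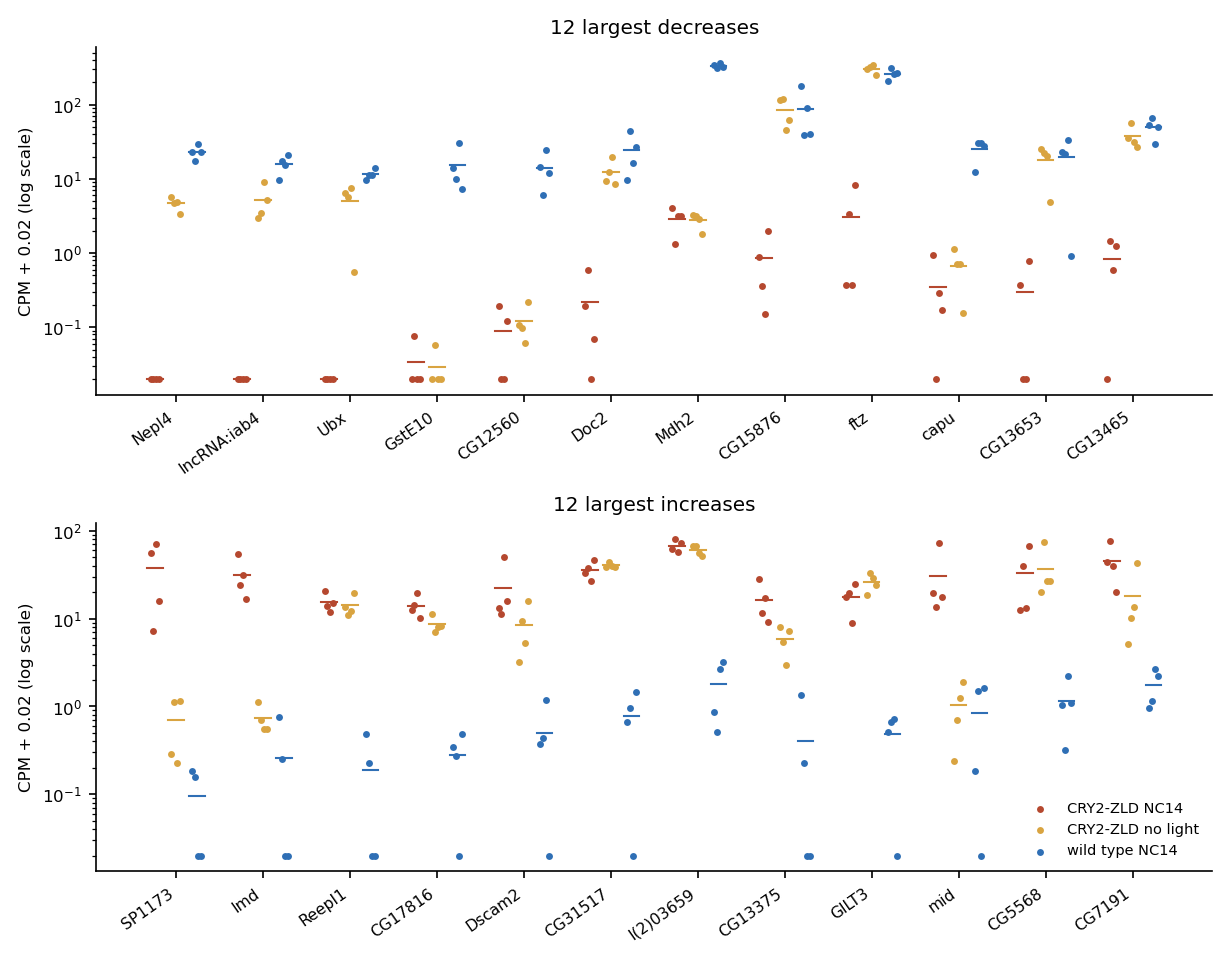
CPM + 0.02 on a log scale of the 12 largest decreases (top) and the 12 largest increases (bottom), with a point for each embryo and a bar at the mean, in CRY2-ZLD lit at NC14, CRY2-ZLD without light and wild type lit at NC14. Embryos without counts stand at 0.02. For Mdh2, GstE10, CG12560 and capu the unlit embryos lie with the lit CRY2-ZLD embryos, and for ftz and CG15876 with wild type.

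The unlit and NC13-14 libraries fell into sets by replicate number in measures the groups do not explain. Mitochondrial large rRNA took 7.59% to 7.77% of counts in unlit CRY2-ZLD numbers 1 and 2 and 0.580% to 1.46% in numbers 3 and 4, with 6.404% to 7.08% against 1.996% to 3.07% in CRY2-ZLD lit at NC13-14 and 6.03% to 6.05% against 1.13% to 1.35% in wild type lit at NC13-14. Ribosomal protein genes took 10.3% to 10.9% in numbers 1 and 2 of these 3 groups and 13.7% to 14.8% in numbers 3 and 4. Whether this follows a batch is not given in the labels, and its part in the results was not tested beyond the values within each set.

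Unlit CRY2-ZLD embryos had 424 genes lower (4.45%) and 340 higher (3.57%), together 8.03%, than wild type lit at NC13-14, libraries that the NC14 comparison does not use; replicate 4 of the wild type there held 4382299 counts. Of the 919 genes lower at NC14, 223 were also lower without light, which is 24.3% of them and 52.6% of the genes lower without light. Of the 742 higher genes 186 were also higher, 25.1% of them and 54.7% of those higher without light. In opposite directions stood 2 genes lower and 4 genes higher at NC14. Without the shallow library the unlit counts were 280 lower and 213 higher, without unlit CRY2-ZLD replicate 3 they held 275 lower genes, and without wild type NC13-14 replicate 2 or 3 they held 222 or 214 higher genes. In a fit of these 8 libraries alone they were 868 lower and 987 higher, above the 410 and 296 that the same kind of fit gave at NC14, so which comparison has more calls depends on the fit. With numbers 1 and 2 alone of the unlit and NC13-14 groups, a setting chosen after the data were seen, 65 were lower and 57 higher, and with numbers 3 and 4 alone 193 and 68. Among the calls without light that were followed through the settings, those of sisA, scw, pnt, Nepl4 and capu were lost with numbers 1 and 2, at adjusted p of 0.449, 0.419, 0.171, 0.151 and 0.0609, and those of sisA and Nepl4 with numbers 3 and 4, at 0.113 and 0.0814.

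The 4 largest decreases without light, among genes of at least 10 CPM in 1 group, were GstE10 and 3 pseudogenes of ribosomal RNA, multicopy sequences whose counts are uncertain. The pseudogene 28SrRNA-Psi:CR40741 had 1.46, 1.26, 3.22 and 7.72 CPM in unlit CRY2-ZLD, against 34202 CPM in wild type NC13-14 replicate 4 and 3.80 to 16.7 CPM in the other 3 of that group. Those other 3 overlap with the unlit embryos, and the change was -11.33 ± 2.52 (adjusted p = 0.0034), or -1.32 (adjusted p = 0.67) without that replicate. The same library alone was high for 18SrRNA-Psi:CR41602 (12353 CPM) and 28SrRNA-Psi:CR45851 (34437 CPM), whose changes were -12.10 ± 2.64 and -10.22 ± 2.83 with it and -0.65 and 0.23, not called, without it. At NC14, 18SrRNA-Psi:CR41602 had 0.436, 1.03, 0.842 and 1.37 CPM in CRY2-ZLD, against 2.34, 0.810, 309 and 0.727 CPM in wild type, where replicate 3 stood alone. Among the 4 largest increases without light was ct, a homeobox gene, with 3.99, 4.43, 17.4 and 40.7 CPM in unlit CRY2-ZLD. It had 4.88, 13.2, 8.77 and 1.57 CPM in CRY2-ZLD lit at NC14, against 0, 0.162, 0 and 0 CPM in wild type. The groups lit at NC14 did not overlap (6.87 ± 1.13, adjusted p = 4.8e-05), and without light the change was 7.67 ± 1.18, a call lost with numbers 1 and 2 alone (adjusted p = 0.0595).

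The difference between the NC14 effect and the unlit difference was tested gene by gene, a comparison added after the data were seen. It was called for 132 genes in the negative direction (1.39%) and 93 in the positive (0.977%), together 2.36%. The positive count moved by more than 1.5 times in 11 of the 16 fits that left out 1 embryo, between 38 without unlit replicate 3 and 314 without wild type NC14 replicate 1. With numbers 1 and 2 of the unlit and NC13-14 groups alone 32 genes were called negative and none positive, and with numbers 3 and 4 alone 63 and 139. A decrease at NC14 exceeded the unlit difference in 124 of the 919 genes lower (13.5%), and an increase did so in 64 of the 742 higher (8.63%). The NC14 libraries that chose these genes also enter the difference, so these shares cannot be set against those of all genes. Among members of the lists, 6 of 10 pair-rule genes, 4 of 10 Bearded and E(spl) genes and 3 of 11 cell formation genes were called negative. For ftz the difference was -6.60 ± 0.95 (adjusted p = 9.51e-05), with 302, 317, 345 and 253 CPM in unlit CRY2-ZLD embryos, close to wild type. It was -4.68 ± 0.52 for grh (adjusted p = 4.08e-06), -3.70 ± 0.45 for sli (adjusted p = 1.26e-05), -5.34 ± 0.67 for Dfd (adjusted p = 1.44e-05) and -6.33 ± 0.73 for CG15876 (adjusted p = 5.16e-06). Smaller in size were Tom at -3.39 ± 0.44 and Nrt at -2.15 ± 0.29. The ecdysone enzymes phtm and dib were at -5.10 ± 0.80 and -4.99 ± 0.86. Positive differences included hid (2.97 ± 0.63, adjusted p = 0.0073), EcR (2.19 ± 0.37, adjusted p = 0.000588), Dr (4.64 ± 1.04) and lmd (4.97 ± 1.31, adjusted p = 0.0344). The lmd call was lost in 11 of the 16 fits that left out 1 embryo (highest adjusted p = 0.173, without wild type NC13-14 replicate 2). Those of lmd, hid, EcR, Dr and dib were lost with numbers 1 and 2 of the unlit and NC13-14 groups alone, at adjusted p of 0.247, 0.113, 0.117, 0.441 and 0.116, and those of lmd and hid with numbers 3 and 4 alone, at 0.747 and 0.067. By the rule that names genes, the 4 largest positive differences were lmd, Dr, 28SrRNA-Psi:CR45851 (13.18 ± 3.45) and 28SrRNA-Psi:CR40741 (11.24 ± 2.85); the last 2 were not called without wild type NC13-14 replicate 4, at 2.73 (adjusted p = 0.626) and 1.24 (adjusted p = 0.801).

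**Figure D4:**
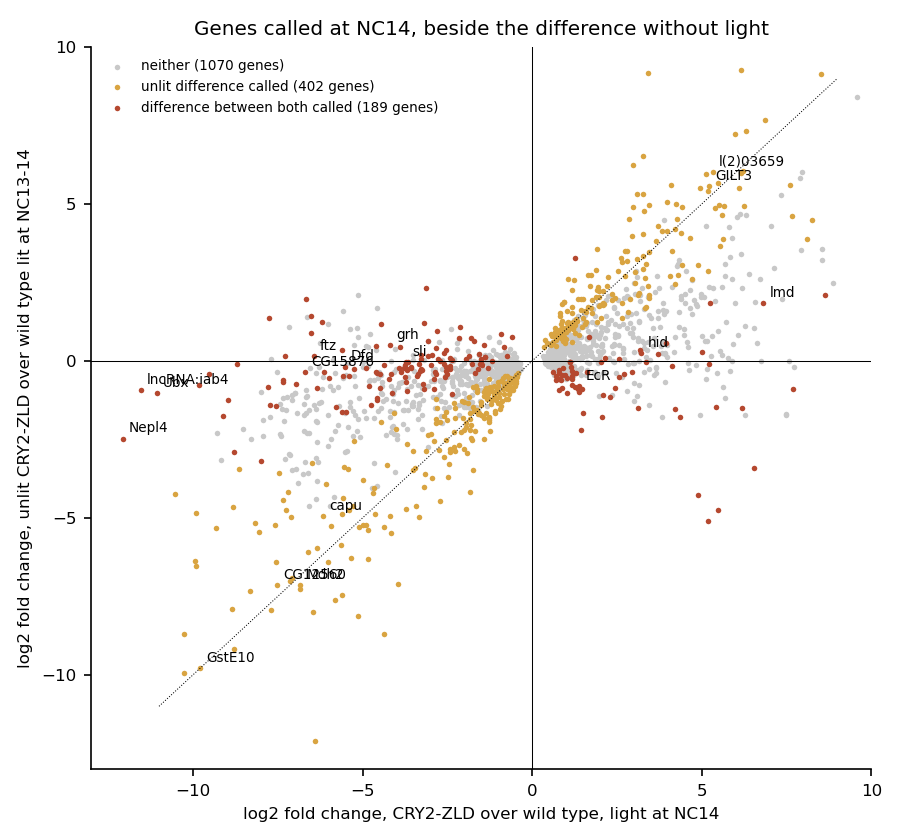
Log2 fold change of unlit CRY2-ZLD over wild type lit at NC13-14 (vertical axis) against that of CRY2-ZLD over wild type at NC14 (horizontal axis) for the genes called at NC14, with equal values on the dotted line. Mdh2 (-6.84 at NC14, -7.13 unlit) and GstE10 lie near the line, and ftz, grh, sli and CG15876 lie near 0 on the vertical axis.

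Light that began a cycle earlier gave similar calls. At NC13-14, 851 genes were lower (8.94%) and 792 higher (8.32%). Of the 919 genes lower at NC14, 523 were lower in both windows, 56.9% of them and 61.5% of the NC13-14 decreases, and of the 742 higher genes 420 were shared, 56.6% of them and 53.03% of the NC13-14 increases. No gene was called in opposite directions. The difference between the windows was called for 5 genes in the negative direction (0.0525%) and 11 in the positive (0.116%), together 0.168%, and for none when libraries were scaled by ribosomal protein genes; 729 genes had an unadjusted p under 0.05. Leaving out 1 embryo gave between 0 negative genes, without CRY2-ZLD NC14 replicate 1, and 6, and between 4 positive genes, without CRY2-ZLD NC13-14 replicate 3 or wild type NC14 replicate 3, and 17, without CRY2-ZLD NC13-14 replicate 2. The positive ones named here had a deeper decrease with the earlier light. The immunoglobulin gene tutl was at -1.34 ± 0.39 at NC14 and -4.87 ± 0.45 at NC13-14, a difference of 3.54 ± 0.56 (adjusted p = 0.00297). The differences were 3.26 ± 0.62 for ASPP, 3.01 ± 0.53 for the adenylate cyclase gene Ac78C, 3.22 ± 0.67 for CG15128 and 2.83 ± 0.48 for btsz. The BMP receptor gene tkv was called lower at NC13-14 (-2.42 ± 0.29) and not at NC14 (-0.61 ± 0.27), a difference of 1.81 ± 0.39. The ASPP call was lost at an adjusted p of 0.0588 without CRY2-ZLD NC13-14 replicate 3 and of 0.052 without wild type NC14 replicate 3. The CG15128 call was lost in 9 of the 16 fits that left out 1 embryo (highest adjusted p = 0.118, without CRY2-ZLD NC13-14 replicate 3), and that of tkv in 11 of the 16 fits that left out 1 embryo (highest adjusted p = 0.127, without CRY2-ZLD NC13-14 replicate 3). With the NC13-14 groups held to numbers 1 and 2, or to 3 and 4, no gene was called in either direction.

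Light that ended with NC12 also shared many calls with NC14 and gave a different picture for some genes. Of the 919 genes lower at NC14, 493 were lower there too, 53.6% of them and 31.5% of the NC10-12 decreases. Of the 742 higher genes 478 were shared, 64.4% of them and 29.6% of the NC10-12 increases. Opposite calls stood at 6 genes lower and 8 genes higher at NC14. At NC10-12, 1567 genes were lower (16.5%) and 1613 higher (16.9%), together 33.4%. The effects at NC14 and at NC10-12 differed for 284 genes in the negative direction (2.98%) and 178 in the positive (1.87%), together 4.85%; they were 108 and 70 without CRY2-ZLD NC10-12 replicate 3 and 555 and 402 without CRY2-ZLD NC10-12 replicate 1. By list, negative and positive calls were 5 and 0 of 11 cell formation genes, 5 and 0 of 10 Bearded and E(spl) genes, 5 and 1 of 18 dorsal genes, 3 and 0 of 10 pair-rule genes, 1 and 0 of 14 gap genes, 0 and 1 of 9 segment polarity genes, 0 and 0 of 15 mesoderm genes and 0 and 0 of 7 terminal genes. The gene dunk was at -3.70 ± 0.47 at NC14 and 0.59 ± 0.42 at NC10-12, a difference of -4.29 ± 0.62 (adjusted p = 0.000264). The gene bnk was at -4.54 ± 0.68 at NC14 and 0.66 ± 0.58 at NC10-12, a difference of -5.20 ± 0.88 (adjusted p = 0.00116). Of genes chosen after their values were seen, gt differed by -2.97 ± 0.52, Tom by -3.03 ± 0.44, ftz by -5.49 ± 0.93 and the uncharacterised gene CG15876 by -6.56 ± 0.74, all with the NC10-12 effect not called. Differences of Ubx, lncRNA:iab4 and Nepl4 were called as well and rest on groups without counts. The maternal determinant bcd was called higher at NC10-12 (7.14 ± 1.24) and was at 0.05 ± 1.09 at NC14, a difference of -7.09 ± 1.56 (adjusted p = 0.0111). That call was lost with limma-voom (adjusted p = 0.384), with the replicate number as a block (0.0632) and with the block and the compared groups alone (0.166). Positive differences included the neural factor gene nerfin-1, which was higher at NC14 (2.35 ± 0.58) and lower at NC10-12 (-2.47 ± 0.60), and Atet, lmd and babos, at 5.62 ± 1.23, 5.34 ± 1.19 and 4.95 ± 0.96.

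**Figure D5:**
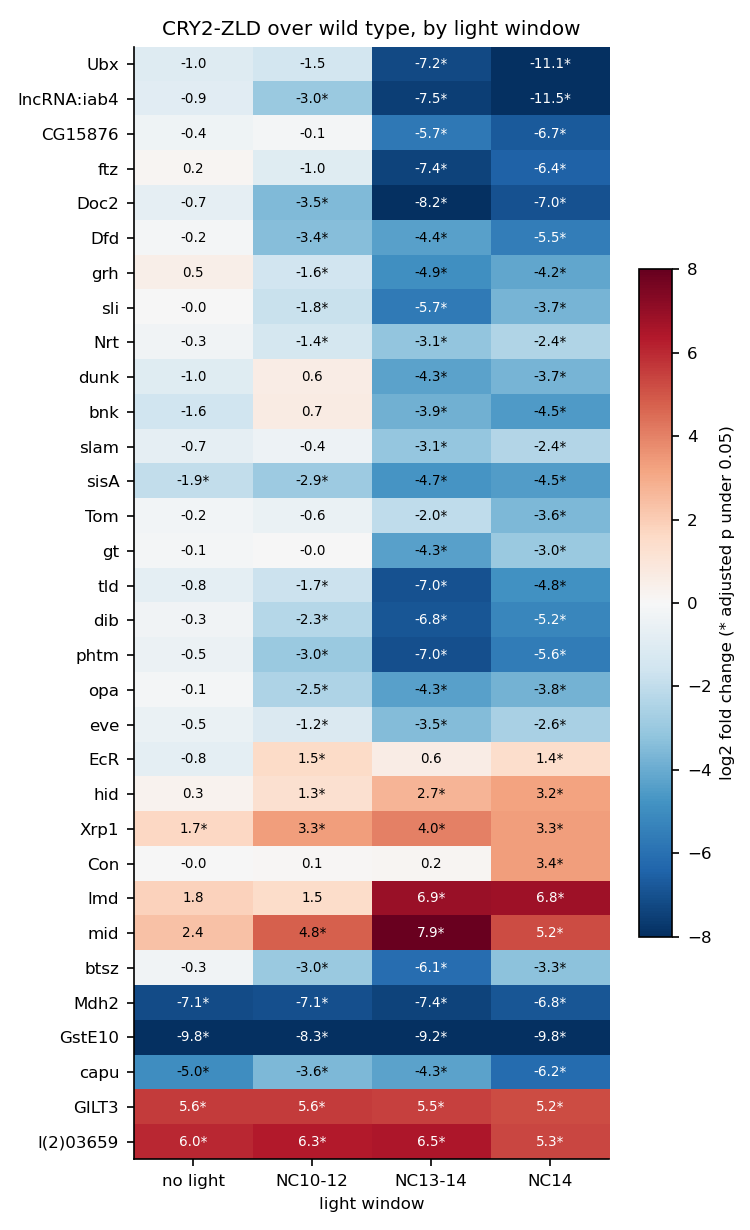
Log2 fold change of CRY2-ZLD over wild type for 32 genes, chosen after their values were seen, without light and with light at NC10-12, NC13-14 and NC14; a star marks an adjusted p under 0.05, and unlit embryos are set against wild type lit at NC13-14. CG15876 is at -0.37 without light, -0.14 at NC10-12, -5.74 at NC13-14 and -6.70 at NC14, while Mdh2 is between -7.39 and -6.84 in every column.

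The genes called lower had shorter exon sequence and more often a single exon than those called higher, a description with no test. A single exon was found in 18.7% of the genes lower at NC14 and 9.34% of those higher, against 12.3% of all genes tested. The median summed exon length was 1780 bases for the lower genes, 2631.5 bases for the higher ones and 2039 bases for all. In the class of exon lengths from 4000 bases 7.499% of genes were lower and 10.7% higher, and in the class under 1000 bases 12.2% were lower and 4.47% higher. Noncoding RNA genes made up 6.86% of the lower genes, 3.10% of the higher and 4.23% of all. On chromosome 4, 15 of 91 tested genes were higher (16.5%) and 1 was lower, with a median of 0.42, against 7.79% higher and a median of -0.03 over all genes. Without wild type replicate 3, 12 were higher (13.2%, against 5.71% of all genes). At NC13-14, 17 of these 91 were higher (18.7%, against 8.32%), at NC10-12 there were 19 (20.9%, against 16.9%), and without light 2 (2.20%, against 3.57%). These counts were chosen after the values were seen.

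Genes of cytosolic ribosomal proteins moved with 1 embryo. Of 83 tested, 43 were lower in CRY2-ZLD and none was higher, with a median of -0.60, and without wild type replicate 3 the count was 3 and the median -0.24. Their share of counts was 12.0% ± 0.445 in CRY2-ZLD and 16.01% ± 5.92 in wild type (SD, n = 4 each), or 13.1% ± 0.423 in wild type without replicate 3; the exact 2-sided permutation test of all 8 gave p = 0.0286, the smallest it can give. RpS5b had 654, 738, 798 and 745 CPM in CRY2-ZLD embryos, against 1628, 1530, 2491 and 1841 CPM in wild type. It did not overlap between the genotypes and was lower with light (-1.35 ± 0.19) and without (-1.08 ± 0.19). Scaling by the summed counts of these genes moved the median of all genes by 0.45 on the log2 scale and gave 462 lower and 1472 higher genes. Without wild type replicate 3 the same scaling moved it by 0.27 and gave 504 lower and 815 higher. With all embryos the scaling called 4.85% of all genes lower and 15.5% higher, the shares that stand beside the counts that follow. Under the scaling with all embryos, members called lower and higher were 6 and 1 of 10 pair-rule genes, 4 and 1 of 8 Hox genes, 7 and 0 of 18 dorsal genes, 5 and 1 of 11 cell formation genes, 1 and 0 of 14 gap genes and 2 and 1 of 10 genes of sex determination. They were 0 and 4 of 9 segment polarity genes, 3 and 3 of 15 neurogenic genes, 0 and 2 of 15 mesoderm genes, 2 and 0 of 7 terminal genes, 5 and 1 of 10 Bearded and E(spl) genes and 0 and 3 of 4 Toll receptor genes. They were 3 and 1 of 11 ecdysone genes, 2 and 0 of 4 Elba genes, 2 and 3 of 11 pioneer and chromatin factors, 1 and 2 of 17 maternal RNAs, 0 and 7 of 9 p53 and apoptosis genes and 0 and 3 of 11 heat shock genes.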

How the data were processed

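Gene counts were deposited by the authors as 1 table of whole-number counts per gene for all 34 libraries, with gene spans and summed exon lengths, per the file headers. Per the submitters' processing notes, Trimmomatic 0.36, HISAT2 2.1.0, featureCounts 1.5.3 and DESeq2 1.14.1 were used with the dm6 genome and FlyBase r6.20; per the labels' protocols libraries were made with the TruSeq version 2 kit. Whether reads were counted by strand is not given in the sources used here, so a gene and an antisense partner cannot be told apart, and shares of overlapping exon bases were computed from the annotation. The table held 17491 genes, 17360 of them with a symbol.

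From the counts, genes passing edgeR's filterByExpr with a minimum count of 10 were kept (9519 genes, 99.98% of counts). edgeR 4.0.16 in R 4.3.3, with limma 3.58.1, fitted a mean for each of the 9 groups over all 34 libraries, which share 1 estimate of the spread, with TMM scaling and the quasi-likelihood test. P-values were adjusted by Benjamini-Hochberg over all genes tested, with a threshold of 0.05, and every adjusted p given is from this fit unless another is named. A log2 fold change is CRY2-ZLD over wild type, and its error is the standard error, taken as its size divided by the square root of the F statistic. CPM were computed with TMM-scaled library sizes, and plain ± values of CPM are SD over 4 embryos. A fold against a group without counts is a bound from a floor of 3 counts over the group; the floor and the 95% interval of a ratio of counts cover counting error only, since PCR copies were not marked. Depth limits genes below about 1 CPM most.

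Alternatives were DESeq2 1.42.0, its size factors, limma-voom, no filter, a mean of at least 5 CPM, the compared groups alone, the replicate number as a block, ribosomal protein scaling, a threshold of 0.01 leaving out each embryo in turn and, added after the data were seen, numbers 1 and 2 or 3 and 4 alone of the unlit and NC13-14 groups. The genes named were zld and His2Av, the 12 largest decreases and increases with at least 10 CPM and no overlap, up to 6 members of each list, and the 4 largest differences in each direction of the other comparisons with at least 10 CPM; all others were chosen after their values were seen, among them Doc1, scw, grim, Irbp18, Trl, tkv and btsz for its window difference. The members and the gene lists were chosen with earlier results of these data known. The difference from the unlit embryos was added after the data were seen. Of the list entries 351 matched the table and 5 did not. The libraries lit at NC10-14 entered the fit only for the spread. The level of His2Av was 2622 ± 243 CPM in CRY2-ZLD and 2280 ± 793 CPM in wild type (0.20 ± 0.18, adjusted p = 0.501).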

Additional observations from a re-analysis of the deposited data

Results flagged for a closer look

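Single embryos stood far from the other 3 of their group in 18 of 236 groups of values tested, by Dixon's test of the gap to the nearest embryo. Chance alone flags about 1 in 20 groups of normally distributed values. CPM need not follow that distribution, and a group with counts in 1 embryo only is always flagged, as for GstE10. The number flagged can therefore not be set against that rate, and no cause was tested. Among CRY2-ZLD embryos replicate 3 was highest for Dscam2 (49.9 CPM), mid (72.3 CPM), bnk (16.6 CPM), lab (7.001 CPM) and the histone gene His2Av (2985 CPM). Replicate 2 was highest for GstE10 (0.0572 CPM, its only count) and Sxl (420.4 CPM) and lowest for Elba1 (295 CPM). Replicate 4 was highest for sisA (14.0 CPM). Among wild-type embryos replicate 3 was highest for the share of ribosomal protein counts (24.9%) and for BobA (47.8 CPM) and lowest for odd (103 CPM). It was also highest for mthl8 (22.6 CPM), CG9514 (5.96 CPM) and Col4a1 (34.1 CPM), and replicate 2 was highest for ct (0.162 CPM). Replicate 1 was highest for CG13375 (1.33 CPM) and EcR (86.4 CPM).

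The genotype effect at NC14 differed from the unlit difference by the interaction test for 18 genes followed here. On the log2 scale the differences were -9.60 for Nepl4, -10.04 for Ubx and -10.60 for lncRNA:iab4, which have no counts in CRY2-ZLD embryos at NC14, so that these values depend on the prior count. They were -6.60 for ftz, -6.33 for CG15876, -5.34 for Dfd, -5.10 for phtm, -4.99 for dib and -4.68 for grh. They were -3.70 for sli, -3.39 for Tom and -2.15 for Nrt. Positive differences were 4.97 for lmd, 4.64 for Dr, 2.97 for hid and 2.19 for EcR. They were 13.2 for 28SrRNA-Psi:CR45851 and 11.2 for 28SrRNA-Psi:CR40741, which rest on wild type NC13-14 replicate 4.

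The effect at NC14 differed from that at NC10-12 for 15 followed genes. The differences were -9.58 for Ubx, -8.55 for lncRNA:iab4 and -7.36 for Nepl4, with the same limit, and -7.09 for bcd. They were -6.56 for CG15876, -5.49 for ftz, -5.20 for bnk, -4.29 for dunk, -3.03 for Tom, -2.97 for gt and -2.63 for grh. They were positive for Atet (5.62), lmd (5.34), babos (4.95) and nerfin-1 (4.82). The effect at NC14 differed from that at NC13-14 for tutl (3.54), ASPP (3.26), CG15128 (3.22), Ac78C (3.01), btsz (2.83) and tkv (1.81).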

How the results depend on the processing

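Of 171 results for named genes, direction and side of the threshold were kept in 170 with DESeq2's size factors, 157 with limma-voom, 168 without the filter, 148 under ribosomal protein scaling and 134 at a threshold of 0.01. They were kept in 164 of 166 under DESeq2's Wald test, 160 of 160 at a mean of at least 5 CPM, 153 of 169 with the compared groups alone, 17 of 42 with numbers 1 and 2 alone of the unlit and NC13-14 groups and 30 of 42 with numbers 3 and 4 alone. Signs turned for zld (0.29) and hb (0.030) under ribosomal protein scaling, for zld (0.15) when wild type NC14 replicate 3 was left out as well, and for His2Av (-0.026) without that embryo, whose values without 1 embryo ran from -0.026 to 0.31; none of these was called. That of 28SrRNA-Psi:CR45851 without light turned with numbers 1 and 2 alone (0.58) and without wild type NC13-14 replicate 4 (0.23), within a range of -11.8 to 0.23 without 1 embryo. Of 106 genes called at NC14 among those followed, 85 kept their call without any 1 embryo. Counts of calls moved as follows, lower or negative first. At NC14 they were 410 and 296 with the compared groups alone, 462 and 1472 under ribosomal protein scaling, 504 lower with 1 embryo fewer in addition, 496 and 354 at 0.01, and 708 to 957 and 542 to 878 without 1 embryo. For the difference from NC13-14 they were 25 and 38 with DESeq2, 3 negative with limma-voom, 0 negative at 5 CPM, 3 and 31 with the compared groups alone, 0 and 0 under ribosomal protein scaling, 0 and 4 at 0.01, 0 and 0 with numbers 1 and 2 alone and with 3 and 4 alone, and 0 to 6 and 4 to 17 without 1 embryo. For the difference from NC10-12 they were 443 and 354 with DESeq2, 346 positive with limma-voom, 94 and 112 with the compared groups alone, 53 and 36 under ribosomal protein scaling, 45 and 19 at 0.01, and 108 to 555 and 70 to 402 without 1 embryo. For unlit embryos they were 868 and 987 with the compared groups alone, 210 lower under ribosomal protein scaling, 222 and 164 at 0.01, 65 and 57 with numbers 1 and 2 alone, 193 and 68 with 3 and 4 alone, and 275 to 420 and 213 to 312 without 1 embryo. For the difference from unlit embryos they were 264 positive with DESeq2, 149 positive with its size factors, 68 negative under ribosomal protein scaling, 66 and 16 at 0.01, 32 and 0 with numbers 1 and 2 alone, 63 negative with 3 and 4 alone, and 97 to 174 and 38 to 314 without 1 embryo. The cause of these moves was not tested. Of the calls at NC14, 55.3% were decreases with TMM scaling and 23.9% under ribosomal protein scaling, or 38.2% with wild type replicate 3 left out too. The search of promoters for a motif was not run.

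Same-numbered embryos lit at NC14 did not deviate together (correlations of deviations between -0.103 and -0.021 over 4 pairs). In the unlit and wild type NC13-14 groups the correlations ran from -0.032 to 0.16, at NC13-14 from -0.108 to 0.21 and at NC10-12 from 0.016 to 0.28, and in each of these 2 of 4 CRY2-ZLD embryos correlated best with their own number. Not every pair was above 0.1, so the numbers were not taken as a pairing, though the unlit and NC13-14 libraries differ between numbers 1 and 2 and numbers 3 and 4. With the replicate block 154 of 171 named results were the same, with 0 and 4 calls for the difference from NC13-14 and 173 negative for NC10-12. With the replicate block and the compared groups alone 131 of 169 were the same, and calls were 281 and 167 at NC14, 1 and 22 for NC13-14, 32 and 29 for NC10-12, 675 and 754 unlit, and 20 positive for the difference from unlit embryos.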

Other observations

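The 3 other largest increases without light, named by the rule, had low levels in 3 wild-type embryos at NC14 and their highest in replicate 3. The receptor gene mthl8 had 50.6, 45.7, 79.4 and 60.97 CPM in CRY2-ZLD embryos and 0, 0, 22.6 and 0 CPM in wild type, with no overlap (3.43 ± 1.13, adjusted p = 0.0359). That call was lost in 5 of the 8 fits that left out 1 embryo and with the compared groups alone (adjusted p = 0.199). The gene CG9514 had 11.1, 18.2, 18.7 and 12.04 CPM in CRY2-ZLD embryos and 0.191, 0.347, 5.96 and 0 CPM in wild type. The collagen gene Col4a1 had 11.9, 23.1, 10.3 and 5.72 CPM in CRY2-ZLD embryos and 0.0817, 0.278, 34.1 and 1.40 CPM in wild type, where replicate 3 was above every CRY2-ZLD embryo (0.52 ± 0.92, adjusted p = 0.753). All 3 were called higher in unlit CRY2-ZLD embryos, at 9.18 ± 1.70, 6.52 ± 1.18 and 6.82 ± 1.24. Without wild type replicate 3 the changes at NC14 were 6.19 for CG9514 (adjusted p = 2.4e-05) and 4.55 for Col4a1 (adjusted p = 0.000301), and 13.4 for mthl8, a value that depends on the prior count. Wild type replicate 3 was thus the nearest of the wild-type embryos to CRY2-ZLD in mthl8 and CG9514, and what sets it apart was not tested.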
